A study of Homo sapiens with 4 samples.

Results

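The RNA-binding proteins that choose splice sites were followed in BICR10 cells, a line from a human head and neck tumour, after knockdown of the histone reader YEATS2. A rule on gene symbols picked the SR proteins named SRSF, the classical hnRNP genes, and SNRNP70, TRA2A, TRA2B, PTBP1, RBFOX2, MBNL1, QKI, ESRP1 and ESRP2. It returned 43 of the 60623 genes in the count tables (12 SR proteins, 22 hnRNPs and 9 other factors), after 96 matching rows had been left out as pseudogenes. Counts of sequenced fragments per gene came from 4 RNA-seq libraries, of which 2 were from cells with a control hairpin (shControl) and 2 from cells with a hairpin against YEATS2 (shYEATS2). Every library thus came from cells that had been transduced with a lentiviral hairpin and selected with puromycin. Which YEATS2 hairpin each library carried is not given in the sources used here, and the study describes its data as biological replicates without saying how the 2 libraries of a group were grown. The p-values measure the spread between these libraries.

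Splicing removes introns from the primary transcript, and the spliceosome depends on auxiliary proteins to recognise exons. SR proteins carry RNA recognition motifs and a tail rich in arginine and serine, and they mostly promote inclusion of the exons they bind. hnRNPs coat nascent RNA and often oppose that choice, while QKI, RBFOX2, MBNL1, PTBP1 and the ESRP proteins set tissue-specific programmes, including those that differ between epithelial and mesenchymal cells. Many genes of these families also splice their own transcripts, with exons or introns that send part of the RNA to nonsense-mediated decay (NMD).

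Some members are close relatives whose mRNA levels did not move alike, and the promoters of a pair from each large family are shown for that reason. Each run below is the 250 bases before the RefSeq start of transcription, written from upstream to downstream on the strand of the gene (GRCh38.p14). Capitals mark the letters CCAAT or their reverse complement ATTGG, a core promoter element bound by the NF-Y complex. The stretch of SRSF3 is chr6:36594112-36594361 on the plus strand, and those of SRSF7, HNRNPL and HNRNPLL lie on the minus strand at chr2:38751362-38751611, chr19:38849987-38850236 and chr2:38602929-38603178. GENCODE 44 places the protein-coding gene SRSF3 (ENSG00000112081) at chr6:36594353-36605600, SRSF7 (ENSG00000115875) at chr2:38743599-38751494, HNRNPL (ENSG00000104824) at chr19:38836370-38852347 and HNRNPLL (ENSG00000143889) at chr2:38561969-38603586.
SRSF3: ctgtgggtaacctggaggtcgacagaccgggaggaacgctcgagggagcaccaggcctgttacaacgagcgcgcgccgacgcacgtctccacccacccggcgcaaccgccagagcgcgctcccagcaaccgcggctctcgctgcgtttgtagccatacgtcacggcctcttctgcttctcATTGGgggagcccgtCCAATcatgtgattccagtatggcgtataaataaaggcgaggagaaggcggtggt
SRSF7: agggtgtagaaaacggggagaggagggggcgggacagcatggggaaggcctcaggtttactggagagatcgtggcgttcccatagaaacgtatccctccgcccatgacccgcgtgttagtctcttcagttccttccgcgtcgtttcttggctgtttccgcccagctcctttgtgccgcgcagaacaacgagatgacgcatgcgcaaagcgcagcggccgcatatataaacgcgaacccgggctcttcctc
HNRNPL: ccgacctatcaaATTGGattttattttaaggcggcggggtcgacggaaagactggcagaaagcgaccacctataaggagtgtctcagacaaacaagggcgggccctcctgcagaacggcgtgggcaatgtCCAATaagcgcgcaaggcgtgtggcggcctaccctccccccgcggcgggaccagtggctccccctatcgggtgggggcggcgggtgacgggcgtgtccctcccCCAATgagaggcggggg
HNRNPLL: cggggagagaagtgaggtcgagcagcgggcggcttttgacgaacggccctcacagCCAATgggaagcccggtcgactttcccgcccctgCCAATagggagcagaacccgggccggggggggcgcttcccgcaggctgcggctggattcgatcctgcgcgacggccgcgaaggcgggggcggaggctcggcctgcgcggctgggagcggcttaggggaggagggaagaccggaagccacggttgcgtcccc
SRSF3 held the element 70 and 55 bases before its start, and SRSF7 held none in this window. HNRNPL held it 238, 120 and 17 bases before its start and HNRNPLL at 195 and 161.

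The target of the hairpin was measured in every library. YEATS2 had 3000 and 2521 counts in shControl and 741 and 343 in shYEATS2. After TMM scaling, which sets libraries to a common level through the bulk of their genes, these were 66.1 and 66.6 CPM (counts scaled to the effective size of the library) against 29.2 and 29.1. The groups lay far apart, and YEATS2 mRNA was left at 43.95% of its control level (log2 fold change −1.19 ± 0.08 SE, edgeR quasi-likelihood test, adjusted p = 3.42e-21 after Benjamini-Hochberg correction over all genes). All adjusted p-values below come from this fit.

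Counts on genes ran from 11334133 to 47297970 per library, and both shYEATS2 libraries were shallower than both shControl libraries, so depth and knockdown cannot be told apart by design. One count was worth 0.0220 to 0.0848 CPM. The markers of the line moved with the groups as well. The summed level of 10 fibroblast and mesenchymal markers was 8843 and 8794 CPM in shControl and 4209 and 3935 CPM in shYEATS2, and that of 12 squamous epithelial markers was 234 and 236 against 163 and 150 CPM. Most of the squamous sum was SFN (126 to 136 CPM), the epithelial genes CDH1, EPCAM and TP63 stayed under 3 CPM in every library, and the leukocyte markers summed to at most 2.03 CPM. The cells are described as a head and neck cancer line, yet TP63, CDH1 and EPCAM were near 0 in all 4 libraries. Collagens among the mesenchymal markers were high in all 4. Other members of both lists went the other way. KRT6A had 54.9 and 58.1 CPM in shControl and 1.38 and 2.20 CPM in shYEATS2. KRT5 had 16.4 and 14.9 against 1.03 and 1.36 CPM, and 8 of the 12 squamous markers averaged over 1 CPM. THY1, a mesenchymal marker, reached at most 0.286 CPM. The paper reports that its cell lines were authenticated by STR profiling, a DNA-based check of identity. These marker levels alone do not settle the identity of the cells. The part of these markers in the results below was not tested, and fewer cells of a kind cannot be told apart from less RNA per cell in such bulk libraries.

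A splicing factor was called when its adjusted p was under 0.05. Of the 43 genes, 39 had enough counts to be tested, and 19 of them were lower, 2 were higher and 18 were not called. Over all 17058 genes tested, 46.2% were called, 23.6% lower and 22.6% higher. The member share was 48.7% lower and 5.13% higher. The changes were modest, from −0.65 to 0.31 on the log2 scale, with a median of −0.15 beside −0.01 over all genes. A change of at least 0.5 in size was fitted to 5 of the 39 members (12.8%) and to 32.0% of all genes tested. At a mean of 50 CPM or more these shares were 13.9% and 16.2%. The knockdown libraries lay wholly below the controls for 22 members and wholly above for 6, so the groups did not overlap in 71.8% of members, against 71.6% of all genes. Splicing factors are abundant, and among the 4227 genes whose mean reached 50 CPM the called shares were 36.9% lower and 26.1% higher, beside 52.8% and 5.56% of the 36 members at that level.

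**Figure D1:**
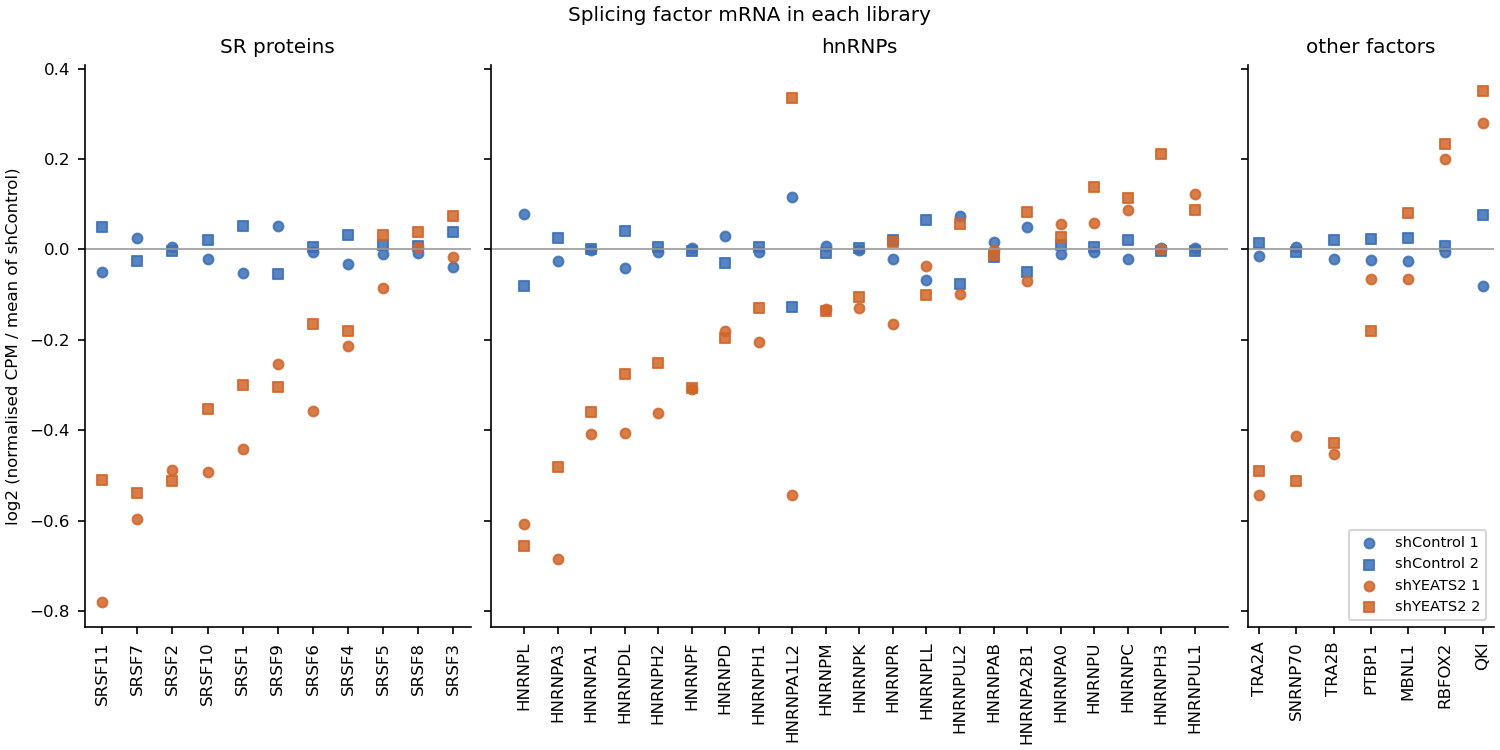
Normalised level of each tested splicing factor in each of the 4 libraries, as the log2 ratio to the mean of the shControl libraries, with members ordered by fitted change within each family. Blue symbols are shControl and orange symbols shYEATS2, circles for library 1 and squares for library 2. Both orange symbols lie below both blue ones for 22 members, and HNRNPA1L2, the least abundant, has the widest spread.

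The SR proteins moved mostly downward. Of the 11 tested, 8 fell, 0 rose, and the median log2 fold change was −0.28 (5 lower, 1 higher and −0.14 when library totals alone set the scale). SRSF11, a factor found with early spliceosomes, was measured at 203 and 218 CPM in shControl and at 123 and 148 CPM in shYEATS2. It had the largest decrease of all members (log2 fold change −0.65 ± 0.07 SE, adjusted p = 7.07e-11), to 63.8% of control, and shYEATS2 1 was the lower of the knockdown libraries. SRSF7, which carries a zinc knuckle beside its RNA recognition motif, had 125 and 121 CPM against 81.2 and 84.5 CPM (−0.57 ± 0.07, adjusted p = 2.69e-11). SRSF2, a nuclear SR protein also known as SC35, had 240 and 238 CPM against 170 and 167 CPM (−0.50 ± 0.06, adjusted p = 1.37e-10). For both genes the replicates differed far less than the groups. SRSF7 and SRSF2 were given in full under a rule that required no overlap, so this adds nothing to their calls.

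SRSF10, which represses splicing when dephosphorylated, had 131 and 135 CPM in shControl and 94.6 and 104 CPM in shYEATS2 (−0.43 ± 0.07, adjusted p = 8.49e-08). SRSF1, the founding SR protein and a proto-oncogene, had 58.1 and 62.5 CPM against 44.4 and 49.0 CPM (−0.38 ± 0.08, adjusted p = 2.22e-05). SRSF9 had 128 and 119 CPM against 103 and 99.8 CPM (−0.28 ± 0.06, adjusted p = 2.72e-04). Genes given in full were chosen under a rule that required no overlap between groups, so the separation of SRSF10, SRSF1 and SRSF9 adds nothing to their calls. SRSF6 and SRSF4, a pair of long SR proteins with similar domains, fell less (log2 fold changes of −0.27 and −0.20), and their calls, like that of SRSF9, were lost under library totals alone. Without shControl 1 SRSF9 was not called, without shControl 2 SRSF4 was not, and after thinning SRSF6 was not.

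The other SR proteins did not pass the test. SRSF3, the smallest member of the family, had 263 and 277 CPM in shControl and 267 and 284 CPM in shYEATS2 (0.03, 95% interval −0.09 to 0.15). SRSF5 had a log2 fold change of −0.03 (−0.16 to 0.10), and SRSF8, a retrogene relative of SRSF2, one of 0.02 (−0.16 to 0.20). These intervals leave out decreases of the size fitted to SRSF11, SRSF7 or SRSF2. SRSF12 had 1 count in one shControl library and 0 in the other libraries, and it was not tested. Summed over the 12 genes, SR protein mRNA was 1495 and 1526 CPM in shControl and 1191 and 1266 CPM in shYEATS2, with no overlap between the groups.

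Among the 21 hnRNP genes tested, 8 were lower, 0 were higher and 13 were not called, with a median log2 fold change of −0.12 that turned to 0.02, with 6 lower and 5 higher, under library totals alone. The largest decrease was in HNRNPL, which binds CA repeats in introns and exons. It had 245 and 220 CPM in shControl and 153 and 147 CPM in shYEATS2 (−0.63 ± 0.06, adjusted p = 1.49e-13), a level of 64.6% of control. The gene overlaps other annotated genes on its strand, so part of its reads may have been set aside as ambiguous. The same holds for other members, such as HNRNPA1, HNRNPH2 and SRSF9. HNRNPA3 of the A/B group had 459 and 476 CPM against 291 and 335 CPM (−0.58 ± 0.06, adjusted p = 3.02e-12). HNRNPA1, the prototype repressor of the same group, had 1189 and 1191 CPM against 897 and 927 CPM (−0.38 ± 0.06, adjusted p = 6.43e-08). HNRNPA1 was thus the most abundant gene of the set, by CPM, that fell.

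HNRNPDL, a relative of the AU-rich element binding protein HNRNPD, had 335 and 354 CPM in shControl and 260 and 285 CPM in shYEATS2 (−0.34 ± 0.06, adjusted p = 2.23e-06). HNRNPH2 had 127 and 128 CPM against 99.4 and 107 CPM (−0.31 ± 0.06, adjusted p = 4.71e-05), and HNRNPF had 202 and 201 CPM against 162 and 163 CPM (−0.31 ± 0.06, adjusted p = 1.87e-05). HNRNPH2 and HNRNPF both belong to the group that binds runs of G. HNRNPD and HNRNPH1 were called lower with smaller changes (−0.19 and −0.17), and neither was called when library totals alone set the scale or without shControl 1. HNRNPH1 also lost its call without shControl 2 and when libraries were thinned to the smallest total.

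Other abundant hnRNPs, unlike HNRNPA1, were not called. HNRNPA2B1, the highest of all by CPM, had 1435 and 1339 CPM in shControl and 1322 and 1469 CPM in shYEATS2, so its groups overlapped (0.01, 95% interval −0.11 to 0.13). HNRNPK, a binder of C-rich RNA, had 965 and 968 CPM against 883 and 898 CPM (−0.12, −0.23 to −0.003, adjusted p = 0.0859), and HNRNPM stood at −0.13 (−0.25 to −0.02, adjusted p = 0.0506). The knockdown libraries were below the controls in both genes, but groups did not overlap in 71.6% of all genes tested. Neither gene passed after adjustment, and with library totals alone HNRNPK stood at 0.02 and HNRNPM at −0.001. HNRNPU, HNRNPC, HNRNPH3 and HNRNPUL1 had small positive values between 0.10 and 0.11 that did not pass the test. HNRNPR (−0.08), HNRNPLL (−0.06), HNRNPUL2 (−0.03), HNRNPAB (−0.01) and HNRNPA0 (0.04) lay near 0. HNRNPA1L2, a retrocopy close to HNRNPA1 in sequence, had only 4.34 to 7.97 CPM and a wide interval (−0.15, −0.55 to 0.26), and its reads may be shared with its parent gene. The readthrough gene HNRNPUL2-BSCL2, which overlaps HNRNPUL2 on its strand, had 0 counts in every library. Over the 22 genes, the summed hnRNP level under TMM was 8829 and 8746 CPM in shControl and 7883 and 8263 CPM in shYEATS2. This gap depends on the TMM scaling, since the median hnRNP change was 0.02 under library totals alone.

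Of the other factors, 7 were tested, 3 were lower and 2 were higher, with a median of −0.12 that turned to 0.01 under library totals alone. TRA2A and TRA2B encode the SR-like activators that bind GAA-rich exons. TRA2A had 98.0 and 100.004 CPM in shControl and 68.0 and 70.4 CPM in shYEATS2 (−0.52 ± 0.07, adjusted p = 1.16e-09), and TRA2B had 200 and 206 CPM against 148 and 151 CPM (−0.44 ± 0.06, adjusted p = 7.47e-09). SNRNP70, the U1-specific protein of the particle that recognises the donor splice site, had 224 and 222 CPM against 167 and 156 CPM (−0.46 ± 0.06, adjusted p = 2.57e-09). The 3 genes kept between 69.8 and 73.6% of their control level.

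The members that rose were QKI and RBFOX2, both regulators with a known part in mesenchymal splicing. QKI had 167 and 186 CPM in shControl and 214 and 225 CPM in shYEATS2 (0.31 ± 0.06, adjusted p = 1.97e-05). RBFOX2 had 169 and 171 CPM against 196 and 200 CPM (0.22 ± 0.06, adjusted p = 0.00214). RBFOX2 was no longer called when either shControl library was left out, whereas QKI was. MBNL1, which shifts exons toward adult isoforms, had a log2 fold change of 0.01 (95% interval −0.11 to 0.13), and PTBP1, the polypyrimidine tract binding repressor, one of −0.12 (−0.24 to −0.002, adjusted p = 0.0902). Beside the rise of QKI and RBFOX2, VIM was measured at 1548 and 1590 CPM in shControl and 1848 and 1714 CPM in shYEATS2, while COL1A1 was at 2842 and 2744 against 926 and 854 CPM. Of the 9 fibroblast and mesenchymal markers tested, 7 were lower (median −1.65) and VIM was the only one that was higher.

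The epithelial splicing regulators were almost absent, in libraries where CDH1, EPCAM and TP63 were low too. Some squamous markers were higher, such as KRT6A at 54.9 and 58.1 CPM in shControl. ESRP1 had 1 and 0 counts in shControl and 4 and 0 in shYEATS2, and ESRP2 had 10 and 5 counts against 4 and 2. Neither could be tested at this depth, and 0 counts in the shallowest library allow up to 0.254 CPM. CDH1, a defining epithelial gene, was low in the same libraries, at 0.352 and 0.317 CPM in shControl and 2.84 and 2.12 CPM in shYEATS2, and EPCAM at 1.23 and 0.793 against 0.473 and 0.509 CPM.

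**Figure D2:**
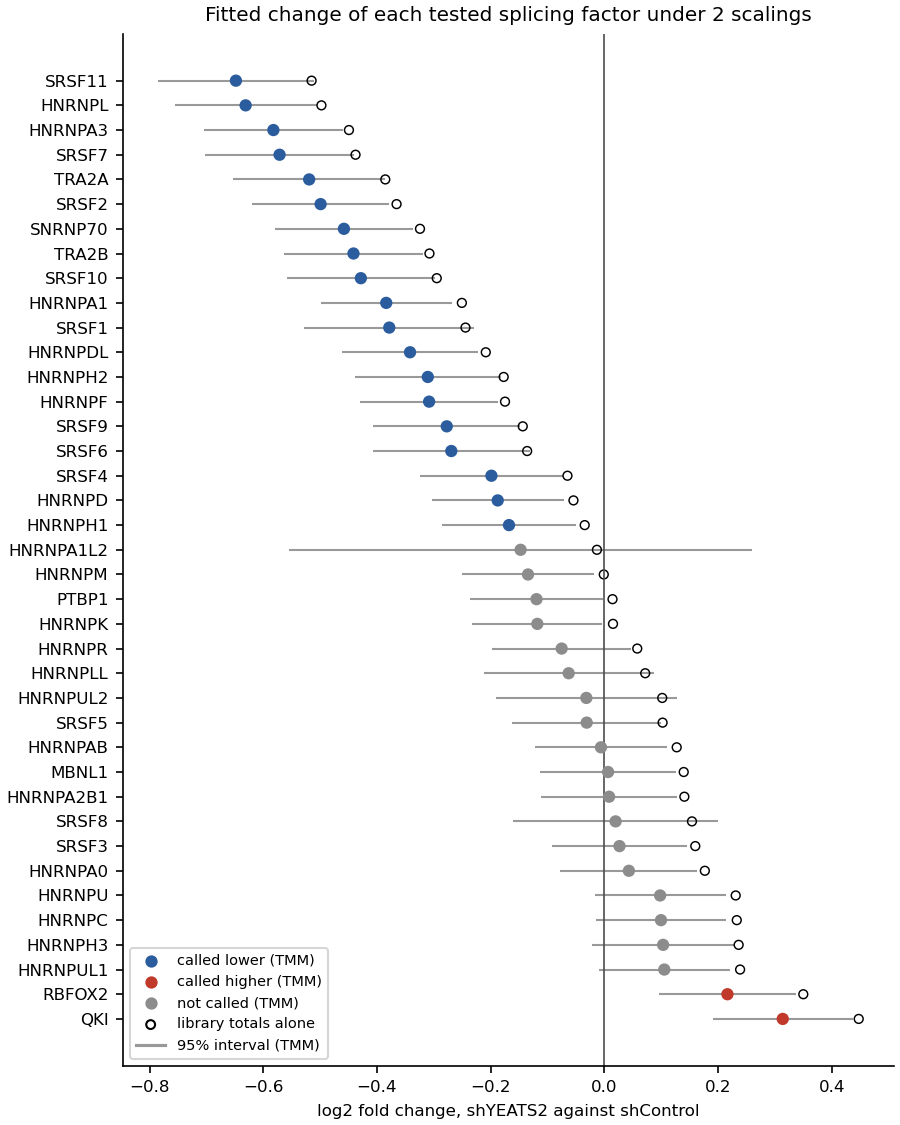
Fitted log2 fold change of each tested splicing factor, shYEATS2 against shControl. Filled points with grey 95% intervals use TMM scaling (blue, called lower; red, called higher; grey, not called) and open circles use library totals alone. Every open circle lies to the right of its filled point, and 14 blue points and both red points keep their call under library totals.

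How many members were called depended on the scaling. With library totals alone in place of TMM, the median of all genes moved from −0.01 to 0.13. Of the 39 tested members, 14 were lower and 9 were higher, while 15.1% of all genes tested were lower and 31.9% higher. HNRNPD, HNRNPH1, SRSF4, SRSF6 and SRSF9 then lost their call, and HNRNPA0, HNRNPC, HNRNPH3, HNRNPU, HNRNPUL1, MBNL1 and SRSF3 were called higher. Of all calls, 32.1% were lower under library totals and 51.0% under TMM. Relative to the median of all genes, 27 of 39 members were lower under either scaling. Since the scaling moves every gene by a like amount, this agreement was largely fixed in advance and is no added support. The members took 1.14 and 1.13% of the raw gene counts in shControl and 1.11 and 1.14% in shYEATS2, shares that overlap, while their summed TMM level was 11865 and 11864 against 10533 and 10995 CPM.

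The other 14 decreases kept their call. HNRNPA1, HNRNPA3, HNRNPDL, HNRNPF, HNRNPH2, HNRNPL, SNRNP70, SRSF1, SRSF2, SRSF7, SRSF10, SRSF11, TRA2A and TRA2B were lower in all 13 alternative analyses with the same threshold, and QKI was higher in all of them. DESeq2 called the same 19 members lower and the same 2 higher, although it called fewer genes in all (2949 lower and 2820 higher, against 4019 and 3858). Thinning every library to the smallest total left 17 lower and 2 higher.

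The span of levels over the genes was far wider than any change with knockdown. Per kb of the canonical transcript, HNRNPA2B1 stood highest, at 382 CPM per kb in shControl and 385 in shYEATS2. HNRNPK followed at 335 and 308, HNRNPA1 at 318 and 244, and HNRNPAB at 215 and 214. HNRNPK and HNRNPA1 lay close together in shControl, and the gap between them was wider in shYEATS2. SNRNP70 (133 and 96.8) and SRSF2 (127 and 89.5) were the highest of the other factors and of the SR proteins in shControl. SRSF8 (5.90 and 5.99) and HNRNPA1L2 (4.71 and 4.58) were the lowest genes tested. A gene's rank on this scale depends on which transcript is taken as canonical.

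**Figure D3:**
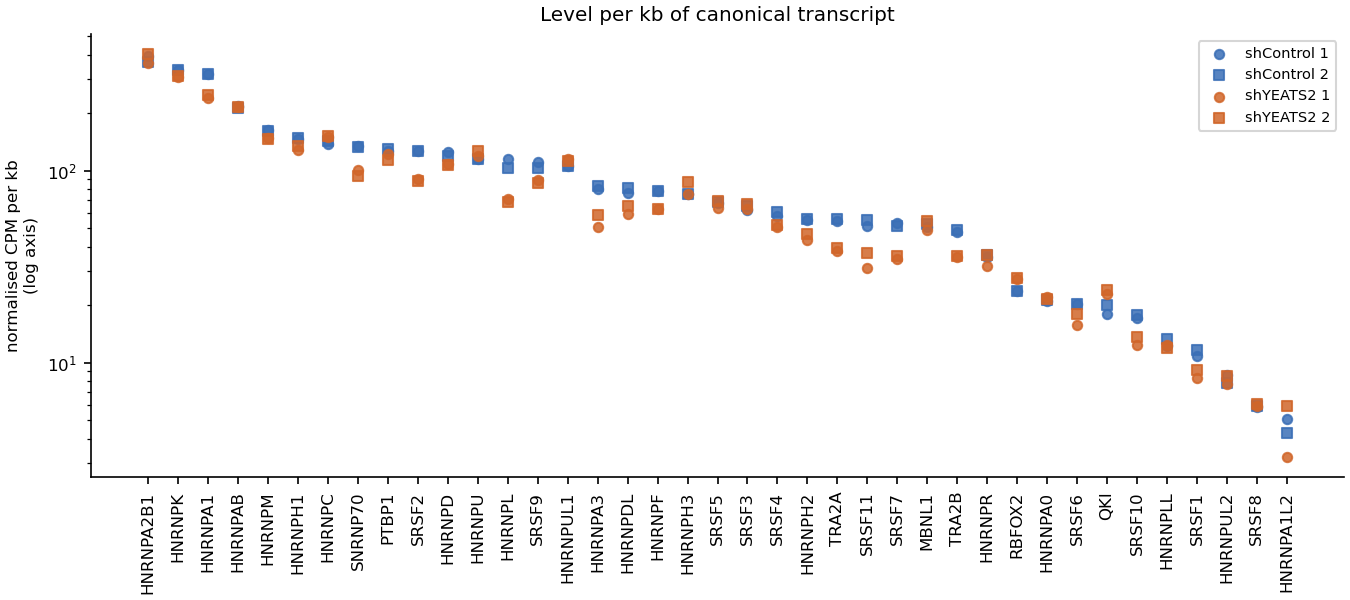
Level of each tested splicing factor per kb of its canonical transcript, in normalised CPM per kb on a log axis, with members ordered by their shControl mean. Symbols are as in the plot by library (blue shControl, orange shYEATS2). Levels run from 382 CPM per kb for HNRNPA2B1 to 4.71 for HNRNPA1L2 in shControl, a span far wider than the gap between groups for any gene.

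Ratios of related genes within a library do not depend on scaling. The log2 ratio of SRSF3 to SRSF7 counts was 1.07 and 1.20 in shControl and 1.72 and 1.75 in shYEATS2, a difference of 0.60. That of HNRNPL to HNRNPLL was 2.29 and 1.99 against 1.57 and 1.58, a difference of −0.56. Both pairs are those whose promoters are printed above. They were picked because their levels did not move alike, so the separation of the groups in each adds no support. The lowest p that an exact two-sided permutation test can reach with these libraries is 0.333, so the ratios are given without a test.

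The ratio of SRSF2 to SRSF8 differed by −0.52 between the groups and that of HNRNPA1 to HNRNPA2B1 by −0.39, with no overlap in either. HNRNPD against HNRNPDL (0.15) and HNRNPH1 against HNRNPH2 (0.14) moved little, and so did TRA2A against TRA2B (−0.08), although their groups were separate too. HNRNPUL1 against HNRNPUL2 had a difference of 0.12 with overlapping groups. For ESRP1 and ESRP2 no ratio could be formed.

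**Figure D4:**
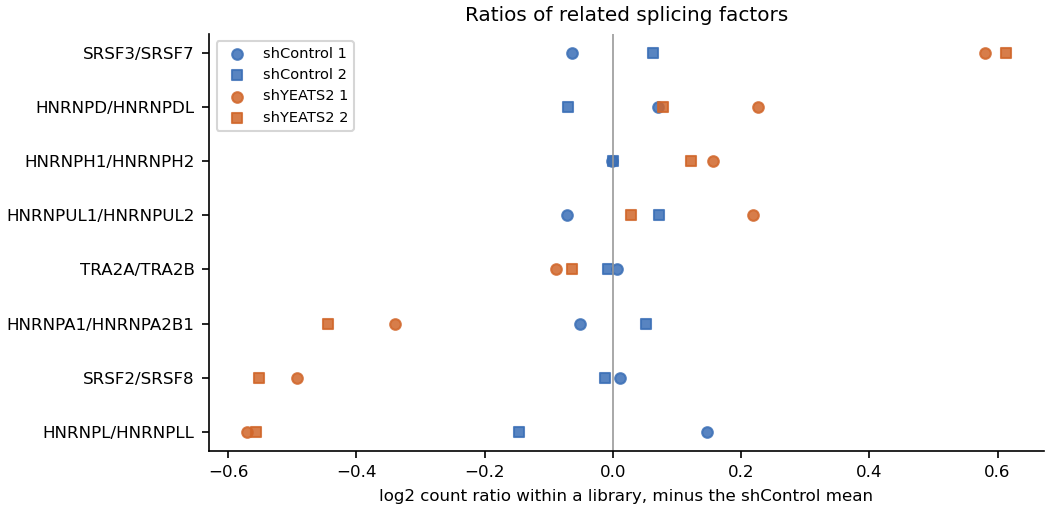
Log2 ratio of the counts of related splicing factors in each library, minus the mean of the shControl libraries. Blue symbols are shControl and orange symbols shYEATS2. SRSF3/SRSF7 lies 0.60 higher and HNRNPL/HNRNPLL differs by −0.56 in shYEATS2, while TRA2A/TRA2B differs by −0.08.

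The CCAAT element of the printed promoters was counted over the set, with letters chosen after the changes had been seen. A RefSeq window within 1000 bases of the canonical start was found for 33 of the 39 tested members. CCAAT on either strand was present in 18 of these 33 windows (54.5%), and in 34.4% of the windows of all 18037 genes. Among the SR proteins, 0 of 7 that fell had it and 2 of 3 that were not called did, namely SRSF3 and SRSF8. Among the hnRNPs it was present in 5 of 7 that fell and in 10 of 12 that were not called lower. Over all tested genes the shares were 35.9% of those called lower and 34.9% of the others. A match is only a run of letters, and binding was not measured here.

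The splicing factors were set beside 147 other genes of the pathway, of which 143 were tested. Of these, 57 were lower (39.9%) and 26 were higher (18.2%), with a median log2 fold change of −0.11 (42 lower, 40 higher and 0.03 under library totals alone). Over all genes tested 23.6% were lower and 22.6% higher, and at a mean of 50 CPM or more 36.9% and 26.1%. The counts of single lists below are to be read beside these shares. The list nearest to the SR proteins in direction was that of SR-related proteins, which share the arginine and serine rich domain without the full SR architecture: 13 of 17 fell, 1 rose and the median was −0.31. SREK1 fell from 110 ± 4.09 to 54.4 ± 5.29 CPM (SD, n = 2; log2 fold change −1.03) and ZRANB2 from 164 ± 4.51 to 104 ± 11.7 CPM (−0.67), while BCLAF1 rose (0.15). With library totals alone 9 of 17 were lower, 1 was higher and the median was −0.18.

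**Figure D5:**
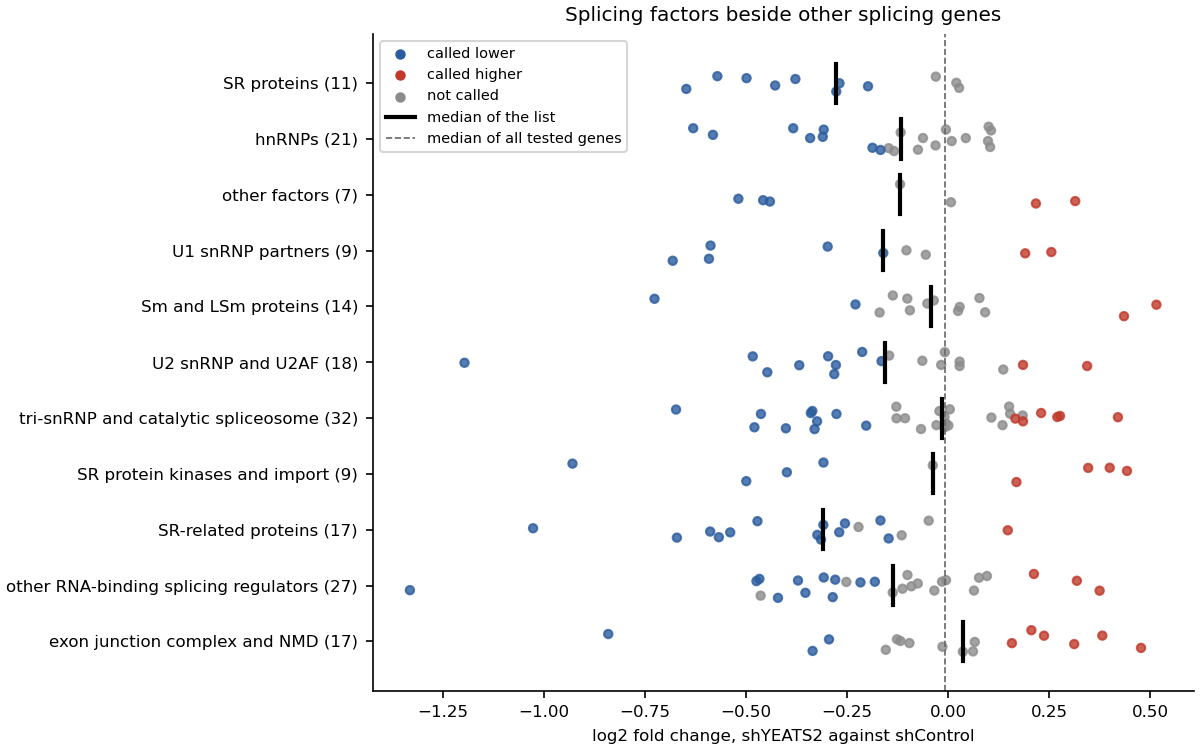
Log2 fold change of each tested gene in the 3 families of splicing factors and in 8 lists of other splicing genes, with the number tested in brackets. Points are blue when called lower, red when called higher and grey when not called, black bars are list medians and the dashed line is the median of all genes. SR proteins (−0.28) and SR-related proteins (−0.31) have the lowest medians under TMM, and the outlying points near −1.2 and −1.3 are U2AF1 and KHDRBS3, both under 10 CPM.

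SNRNP70 works within the U1 particle, and of 9 partners of that particle 5 were lower and 2 were higher (median −0.16). LUC7L2 (−0.68) and LUC7L3 (−0.59), which tune donor site choice, fell, whereas the core U1 proteins SNRPA (0.25) and SNRPC (0.19) rose. In the U2 particle and the U2AF dimer, which recognise the branch point and acceptor site, 9 of 18 were lower and 2 were higher (median −0.16). SF3B1 (−0.48) and U2AF2 (−0.45) fell, and PHF5A (0.34) and SF3B5 (0.18) rose, but with 1 library left out 0 to 2 of the U1 partners and 0 to 3 of the U2 genes were higher. U2AF1 was also lower (−1.20), from 4.71 and 4.07 CPM to 1.85 and 2.03 CPM, but it has a near-identical copy in this genome build that may take its reads, and it is named here after its value was seen.

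The common core changed less evenly. Among 14 Sm and LSm proteins, 2 were lower and 2 were higher (median −0.04), which with 1 library left out became 1 to 3 lower and 2 to 5 higher, with SNRPD3 at −0.73, LSM7 at −0.23, LSM4 at 0.51 and LSM8 at 0.43. Among 32 genes of the tri-snRNP and the catalytic spliceosome, 10 were lower and 6 were higher (median −0.02), and with 1 library left out 1 to 8 were higher and medians ran from −0.07 to −0.03. PRPF19 (−0.67) and TXNL4A (−0.48) fell, and RBM22 (0.28) and PLRG1 (0.27) rose. The medians of both lists turned positive with library totals alone, at 0.09 and 0.12.

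SR proteins are phosphorylated and imported into the nucleus, and the 9 genes for these steps were split, with 4 lower and 4 higher. The CLK kinases release SR proteins from nuclear speckles, and 3 of 4 were lower, CLK2 falling from 17.9 ± 0.315 to 9.42 ± 0.220 CPM (SD, n = 2; −0.93) and CLK3 by 0.50 on the log2 scale. CLK1 was at −0.40, and CLK4 was not called (−0.04, overlapping groups). The cytoplasmic kinase SRPK2 (0.40) and the import receptor TNPO3 (0.44) were higher. CLK2, CLK3, SRPK2 and TNPO3 were named under a rule that required no overlap between groups, so their separation adds nothing to the calls.

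Of 27 other RNA-binding splicing regulators tested, 11 were lower and 3 were higher (median −0.14). PSPC1 (−0.47) fell, and MBNL2 (0.37) and PTBP3 (0.32), relatives of MBNL1 and PTBP1 among the members, rose. Other relatives did not: MBNL3 was lower (−0.42) and PTBP2 was not called (−0.25), both named after their values were seen. KHDRBS3, under 10 CPM, was lower too (−1.33) and is named after its value was seen. The exon junction complex and the NMD factors, which mark and destroy spliced RNA with early stop codons, had a median of 0.04, with 3 of 17 lower and 6 higher. Without shControl 1 that median was −0.01 and 3 were higher. RBM8A (−0.84) and SMG1 (−0.34) fell, and MAGOHB (0.48) and SMG9 (0.38) rose.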

How the data were processed

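RNA was sequenced from 2 shControl and 2 shYEATS2 libraries of BICR10 cells (stranded mRNA, read pairs). The authors aligned reads to GRCh38 with STAR and deposited raw counts per Ensembl gene from HTSeq, with FastQC also named in the submitters' processing notes. The STAR version, annotation release and strand setting are not given in the sources used here, so antisense reads may not be separated. Tallies that name no gene were left out of library sizes: reads with no feature were 7.64 to 8.57%, ambiguous reads 4.31 to 4.61% and reads not uniquely aligned 3.25 to 3.53%.

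Symbols were those of the files. Positions, lengths and types came from GENCODE 44, which held 60295 of the 60623 identifiers. HNRNPA1P48 was left out because the files name it as a pseudogene. Genes were kept by filterByExpr, normalised by TMM, and all 17058 of them entered the quasi-likelihood F test of edgeR 4.0.16 under R 4.3.3 (robust glmQLFit), with a call at a Benjamini-Hochberg adjusted p under 0.05. Each SE and unadjusted 95% interval came from this fit. The scripts were tested on simulated data. Between replicates, chi-square per degree of freedom was 5.95 (shControl) and 5.39 (shYEATS2), so they differed by more than counting noise. The common BCV was 4.95%.

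The members, lists and tests were chosen with earlier results of these data known, and adjustment was over all genes. Genes given in full were YEATS2, SNRNP70 and up to 16 called members with the largest change among those averaging 10 CPM or more and with no overlap between groups. RBFOX2 fell outside this rule and was given in full as a member that rose. From each other list, the 2 largest rises and falls under the same conditions were named, except 1 gene that is not reported here. Motifs were searched on both strands of the 250 bases before a RefSeq start. Alternatives were scaling by library totals alone, by upper quartiles or by DESeq2 size factors, a filter of 10 counts per library or none, the tests of DESeq2 1.42.0 and limma-voom (limma 3.58.1), a replicate block, thinning, an adjusted p under 0.01, and each library left out in turn.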

Additional observations from a re-analysis of the deposited data

How the results depend on the processing

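Scaling by library totals alone left 2571 genes lower, and the median of all genes was 0.13 on the log2 scale. The members had 9 higher and a median of −0.013, the SR proteins 5 lower, 1 higher and −0.14, the hnRNPs 5 higher and 0.015, the other factors 0.014, and the other splicing lists 40 higher and 0.027. The medians of the SR kinases, Sm and LSm proteins and tri-snRNP became 0.096, 0.089 and 0.12. These shifts come from the scaling itself, since every gene moves by a like amount. Upper quartile scaling put the median of all genes at 0.0030. The higher calls in the other splicing lists were 14 with no filter and 16 at an adjusted p under 0.01. Leaving out each library in turn gave medians of all genes from −0.028 to 0.0039, 16 to 23 members lower and 1 to 4 higher, 0 to 2 hnRNPs higher, 1 to 2 other factors higher, 12 to 26 genes of the other lists higher, and medians of −0.13 to 0.067 for SR kinases and −0.093 to 0.011 for Sm and LSm proteins. Without shControl 1 or without shControl 2, 1 member was higher, and without shYEATS2 1 there were 4, HNRNPH3 and HNRNPU being added. A lone library was assumed to vary like the other group. The replicate numbers did not pair the libraries (correlation of −0.018 between deviations), and a replicate block gave 22 members lower, adding HNRNPK, HNRNPM and PTBP1, and 2 higher. DESeq2 called 2949 genes lower and 2820 higher. Depth limited SRSF12, ESRP1 and ESRP2, and no outlier test was possible with 2 libraries in a group.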

Other observations

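Other promoter letters were searched in the same 33 windows, again after the changes had been seen. The E-box CACGTG was present in 5 windows (15.2%, against 7.55% of all genes). These were HNRNPA3, HNRNPD, HNRNPDL and HNRNPH2, which were called lower, and HNRNPM, which was not. Over tested genes the E-box shares were 7.91% of those called lower and 9.17% of the others. The GC box GGGCGG was present in 22 windows (66.7%), beside 55.6% of all genes, 71.5% of tested genes called lower and 69.9% of the others. The ETS letters CCGGAAGT were in 3 windows (9.09%, against 4.92% of all genes, 6.41% of tested genes called lower and 7.42% of the others), and the CRE letters TGACGTCA were in none, beside 2.37% of all genes.

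A gene count sums every isoform. A lower count from a shift toward isoforms that are degraded cannot be told apart in it from a lower count of another origin, and this was not tested. GENCODE 44 lists at least 1 NMD transcript for 35 of the 43 splicing factors, among them all 12 SR proteins, 15 of 22 hnRNPs and 8 of 9 other factors. The pseudogene rows left out held few reads. The 75 rows named after HNRNPA1 together held 1.89 to 2.46% as many counts as HNRNPA1 itself.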
